A study of Mus musculus with 7 samples.

Results

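Adipokines and lipid droplet genes were followed on 7 arrays of mouse carotid artery. The set held 10 genes that adipocytes use to signal and to store fat, namely Adipoq, Lep, Retn, Cfd, Plin1, Cidec, Lipe, Pnpla2, Fabp4 and Pck1. Their probe sets were taken by gene symbol, as all those that the array annotation gives to 1 of these genes alone. This gave 15 of 45101 probe sets, which stood for 8 of the 10 genes, out of 18194 genes named on the array. Cfd and Plin1 were not analysed here.

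Carotid arteries came from offspring of crosses between mice without ApoE, a ligand for the clearance of plasma lipoproteins, and wild-type mice. In 4 samples the mother was ApoE-/- and hypercholesterolemic and the father wild type, which is called ApoE-null mother below. The other 3 samples came from the reverse cross, a normocholesterolemic wild-type mother with an ApoE-/- father, and are called wild-type mother below. All offspring were ApoE-/+, so all groups shared 1 null allele and differed in which parent lacked ApoE. The study asked about susceptibility of such offspring to atherosclerosis. Both parents differ between the crosses, so effects of the mother and of the father cannot be told apart. Age, sex, strain and batch are not in the labels. Whether the arrays stand for separate animals is not stated either, so p-values measure only the spread between these arrays, which may be technical.

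White and brown adipocytes keep triglyceride in droplets under a coat of perilipins and CIDE proteins. Lipases release fatty acids from the droplet when catecholamines signal fasting or cold, and insulin restrains this release. Adipocytes also secrete adipokines, among them adiponectin and leptin. Arteries lie in fat, and perivascular fat of mice can hold brown as well as white adipocytes. In a whole artery sample, fewer adipocytes and less RNA per adipocyte cannot be told apart.

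The arrays carried markers of both the vessel wall and fat. Acta2, the actin of smooth muscle, had signals of 9491.8 to 13536.0 over all arrays, and 8 of 8 endothelial genes, Pecam1 and Cdh5 among them, passed the filter on low signal. Signals are MAS5 values, a linear brightness per probe set scaled to the same trimmed mean on every array. The highest of 27 probe sets for bacterial transcripts, used here as the background ceiling, was at most 22.0 on any array. Gapdh signal at the 3 prime end over that at the 5 prime end was 5.07 to 6.56 with an ApoE-null mother and 5.03 to 7.80 with a wild-type mother. The RNA went through 2 rounds of amplification from an oligo-dT primer, so this ratio is not a mark of RNA quality alone. The array of wild-type mother 2 stood apart, with a Xist signal of 41.2 against 5174.1 to 5930.9 on the other arrays, the highest of these Gapdh values and a summed skeletal muscle signal of 2541 against 149 to 288. Xist is an RNA of female cells, and whether wild-type mother 2 differed in sex from the other arrays was not tested. Apoe itself had signals of 2553.8 to 3105.2 with an ApoE-null mother and 3034.4 to 3897.4 with a wild-type mother.

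Promoters of Adipoq, Lep and Pck1 are shown because the signals of these 3 genes ran apart over the arrays, as described below. They are the 250 bases before the start of each gene in RefSeq on GRCm38.p6, on the plus strand, at chr16:23146286-23146535 for Adipoq, chr6:29059971-29060220 for Lep and chr2:173152823-173153072 for Pck1. The table held promoters for 9 of the 10 genes, and no entry for Fabp4 was used. Capitals mark matches on either strand to the searched letters. The TATA box was searched as TATAAA and the CCAAT box as CCAAT. A site for C/EBP factors was searched as TTGCGCAA, and the wider TTGCNNAA overlaps it. The core of a cAMP response element was searched as ACGTCA. The core bound by nuclear receptors was searched as AGGTCA.
Adipoq: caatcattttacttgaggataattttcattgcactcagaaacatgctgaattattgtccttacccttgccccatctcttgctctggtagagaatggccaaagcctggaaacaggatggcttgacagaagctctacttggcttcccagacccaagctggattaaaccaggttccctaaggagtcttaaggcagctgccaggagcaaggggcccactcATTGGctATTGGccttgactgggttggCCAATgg
Lep: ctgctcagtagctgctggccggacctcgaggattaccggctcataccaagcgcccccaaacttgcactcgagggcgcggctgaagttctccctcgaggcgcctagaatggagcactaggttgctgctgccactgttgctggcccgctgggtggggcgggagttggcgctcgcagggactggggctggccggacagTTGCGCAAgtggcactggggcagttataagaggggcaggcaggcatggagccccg
Pck1: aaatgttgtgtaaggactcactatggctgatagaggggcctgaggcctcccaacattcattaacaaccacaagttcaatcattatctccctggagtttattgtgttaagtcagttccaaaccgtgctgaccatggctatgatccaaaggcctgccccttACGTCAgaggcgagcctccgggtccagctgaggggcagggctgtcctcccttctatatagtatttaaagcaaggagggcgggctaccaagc

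Each of these promoters carried different letters. The Adipoq promoter held 3 CCAAT matches, starting 34, 27 and 7 bases before the gene, the first 2 of them on the minus strand. A CCAAT match occurred in 33.8% of 32851 promoter windows of this length. In the Lep promoter TTGCGCAA began 55 bases before the start, and 0.164% of all windows held these letters. The wider TTGCNNAA was in the Lep, Cidec and Plin1 promoters and in 9.56% of windows. The Pck1 promoter held ACGTCA 91 bases before the start, as did 6.47% of windows somewhere in their length. TATAAA and AGGTCA, found in 12.4% and 14.0% of all windows, had no match in any window of the 9 genes. These matches describe letters and say nothing of binding.

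None of the genes passed the test between the crosses. Of the 15 probe sets, 12 passed the filter on low signal, and 0 of these 12 were called by limma at an adjusted p under 0.05, where 0.00370% of all 27013 tested probe sets were called. At an unadjusted p under 0.05 stood 1 of 12, against a background of 8.25%. The groups overlapped for 12 of 12, while 8.02% of all tested probe sets showed no overlap. The median log2 fold change of the 8 genes was 0.10, each read from its probe set with the highest mean signal, beside a median of -0.0082 over 12707 genes. Fold changes are ApoE-null mother minus wild-type mother on the log2(signal + 2) scale, which understates changes of weak signals.

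**Figure D1:**
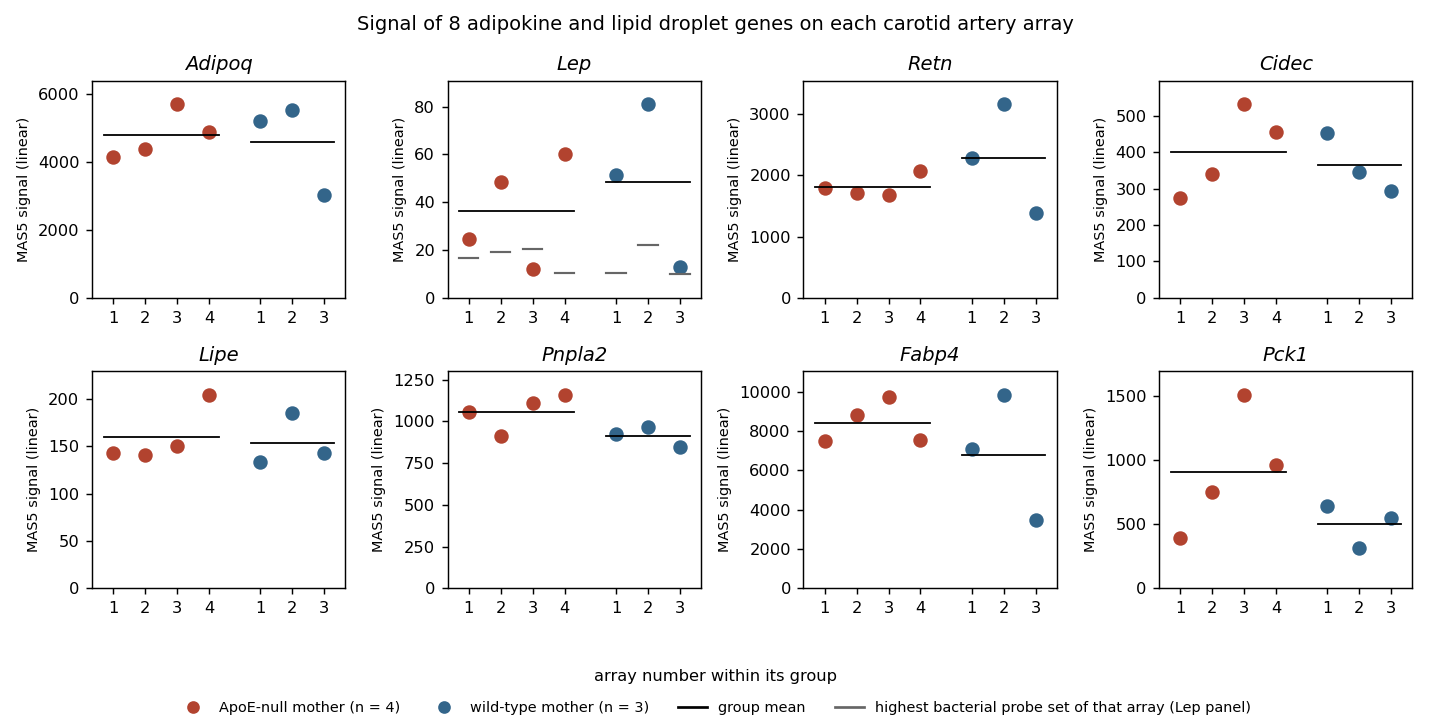
MAS5 signal (linear axis from 0) of the 8 measured genes on each array, with ApoE-null mother arrays left and wild-type mother arrays right, and lines at the group means. Groups overlap in all 8 panels, and the grey marks in the Lep panel show the highest bacterial probe set of each array, which Lep exceeds on 6 of 7 arrays.

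Adiponectin, the product of Adipoq, is a hallmark secreted protein of mature adipocytes and raises insulin sensitivity. Its signal was 4148.6, 4386.9, 5690.0 and 4876.5 with an ApoE-null mother, against 5199.9, 5530.0 and 3035.5 with a wild-type mother. Wild-type mother 3 was the lowest array and ApoE-null mother 3 the highest, and the groups overlapped. The log2 fold change was 0.10 with a 95% interval of -0.34 to 0.53 (limma, adjusted p = 0.919). Without wild-type mother 3 it was -0.18, so its sign rested on that array.

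Leptin, encoded by Lep, reports fat stores to the brain and is made mainly by white adipocytes. Lep was weakly detected, with signals of 24.7, 48.4, 12.0 and 60.4 with an ApoE-null mother and of 51.2, 81.0 and 13.0 with a wild-type mother. The array of ApoE-null mother 3 lay below its background ceiling of 20.4, and wild-type mother 3 lay just above its own ceiling. Lep was thus low on 1 array of each group. The log2 fold change was -0.30, with the widest interval of the tested probe sets of this set, -1.65 to 1.06 (limma, adjusted p = 0.919). It was 0.11 without ApoE-null mother 3 and 0.22 without wild-type mother 2.

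Resistin, the product of Retn, is secreted by adipocytes in mice, where it opposes insulin action. Retn had signals of 1801.1, 1705.6, 1682.2 and 2064.7 with an ApoE-null mother, against 2289.4, 3162.8 and 1384.3 with a wild-type mother. The ApoE-null mother arrays lay close together, between the extremes of the other group. Group means were 1813 ± 175 (SD, n = 4) and 2279 ± 889 (SD, n = 3), and the log2 fold change was -0.25 with an interval of -0.76 to 0.25 (limma, adjusted p = 0.786). Without wild-type mother 2 the value was 0.02.

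Among proteins of the droplet surface, Cidec encodes a CIDE protein that lets droplets grow by passing fat from one to another. Its signals were 274.6, 340.9, 531.7 and 456.8 with an ApoE-null mother and 453.2, 346.5 and 294.2 with a wild-type mother. The wild-type mother arrays lay within the range of the ApoE-null mother arrays. The log2 fold change was 0.11, with an interval of -0.40 to 0.63 (limma, adjusted p = 0.919), and it was -0.04 without ApoE-null mother 3 and -0.03 without wild-type mother 3.

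The first and second steps of lipolysis were read from Pnpla2 and Lipe. Pnpla2 encodes ATGL, which removes the first fatty acid from triglyceride, and had signals of 1053.7, 911.8, 1109.1 and 1160.6 with an ApoE-null mother, against 925.7, 965.2 and 849.5 with a wild-type mother. It varied least over the arrays, by 1.37-fold between the lowest and the highest, and 3 of 4 ApoE-null mother arrays exceeded all of the other group. Its log2 fold change was 0.21, with an interval of -0.09 to 0.51 (limma, adjusted p = 0.709). A second probe set gave 0.29, with an interval of -0.23 to 0.81, and 0.03 without wild-type mother 1. Lipe encodes hormone-sensitive lipase, which acts on diacylglycerol, and had signals of 143.3, 140.8, 150.9 and 204.9 with an ApoE-null mother and of 134.0, 185.5 and 143.0 with a wild-type mother. Single arrays, ApoE-null mother 4 and wild-type mother 2, were high in each group. The log2 fold change of Lipe was 0.05, with an interval of -0.38 to 0.48 (limma, adjusted p = 0.959), and it was -0.07 without ApoE-null mother 4 and -0.04 without wild-type mother 1. Its other probe set did not pass the filter and lay at or below the background ceiling on 7 of 7 arrays, and averaging it in gave 0.52.

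**Figure D2:**
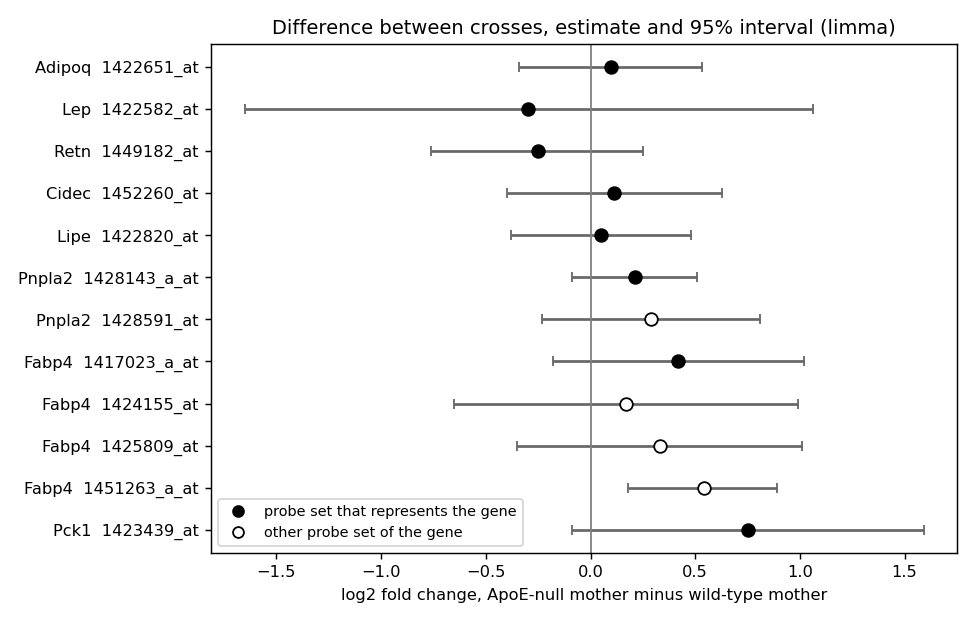
Log2 fold change (ApoE-null mother minus wild-type mother, horizontal axis) of the 12 tested probe sets with 95% intervals from limma, where filled points are the probe sets that represent their genes. Of the 12 intervals 11 include 0, the exception being a second probe set of Fabp4 at 0.54, and Lep has the widest.

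Fabp4 encodes the fatty acid carrier of adipocytes, which macrophages and capillary endothelium also make. Its signals were 7498.8, 8810.2, 9723.5 and 7547.5 with an ApoE-null mother, against 7056.9, 9844.1 and 3485.8 with a wild-type mother. The wild-type mother arrays spread beyond the ApoE-null mother arrays on both sides, with wild-type mother 3 far below. The log2 fold change was 0.42, with an interval of -0.18 to 1.02 (limma, adjusted p = 0.709), and 0.00 without wild-type mother 3.

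Fabp4 was read by 4 probe sets, which were all positive and differed in size. Probe set 1451263_a_at had signals of 4691.6, 5383.1, 5130.3 and 3765.9 with an ApoE-null mother, against 3010.7, 4013.1 and 2818.0 with a wild-type mother. On this probe set 1 wild-type mother array, the second, exceeded the lowest ApoE-null mother array. Its log2 fold change was 0.54, with an interval of 0.18 to 0.89, and missed the threshold after adjustment (limma, adjusted p = 0.505). Leaving out any 1 array gave 0.44 to 0.69. The remaining probe sets, 1424155_at and 1425809_at, gave 0.17 and 0.33. Without wild-type mother 3 these were -0.06 and -0.04, and 1424155_at was also -0.10 without ApoE-null mother 3 and at about 0 without ApoE-null mother 2. Summed macrophage markers had signals of 4961 to 6040 with an ApoE-null mother and 4524 to 5335 with a wild-type mother, and their median log2 fold change was 0.13, positive for 6 of 7. Endothelial markers summed to 3646 to 4874 with an ApoE-null mother and to 3357 to 4266 with a wild-type mother, with 7 of 8 positive and a median of 0.09. The part of either cell type in the Fabp4 values was not tested.

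Pck1 encodes cytosolic PEPCK, which in adipocytes supplies glycerol phosphate for putting fatty acids back into triglyceride. Pck1 had signals of 391.0, 755.0, 1512.8 and 962.3 with an ApoE-null mother, against 639.6, 317.2 and 550.7 with a wild-type mother. ApoE-null mother 2, 3 and 4 exceeded the whole of the other group, and ApoE-null mother 1 fell inside it. Its log2 fold change of 0.75, with an interval of -0.09 to 1.59, was the largest estimate among the 8 genes (limma, adjusted p = 0.642). It was positive under every alternative tried, at 0.26 to 1.10. The low end came from averaging its 3 probe sets, of which 1455209_at lay at or below the background ceiling on 7 of 7 arrays and 1439617_s_at on 3 of 7. The fold change of Pck1 also fell to 0.45 without ApoE-null mother 3 and to 0.45 without wild-type mother 2.

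Genes of the set did not share 1 profile over the arrays. Wild-type mother 3 was the lowest array for 4 of 8 genes, Adipoq, Retn, Pnpla2 and Fabp4, and among the lowest 2 for 6 of 8. Averaged over the 8 genes, the log2 deviation from the mean of all arrays was -0.23, 0.04, 0.12 and 0.31 with an ApoE-null mother, against 0.11, 0.21 and -0.55 with a wild-type mother. ApoE-null mother 3 was the highest array for Adipoq, Cidec and Pck1 and the lowest for Lep. Wild-type mother 2 was the highest for Lep, Retn and Fabp4 and the lowest for Pck1. Lep and Pck1, whose promoters are printed above beside that of Adipoq, thus lay at opposite ends on both of these arrays.

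**Figure D3:**
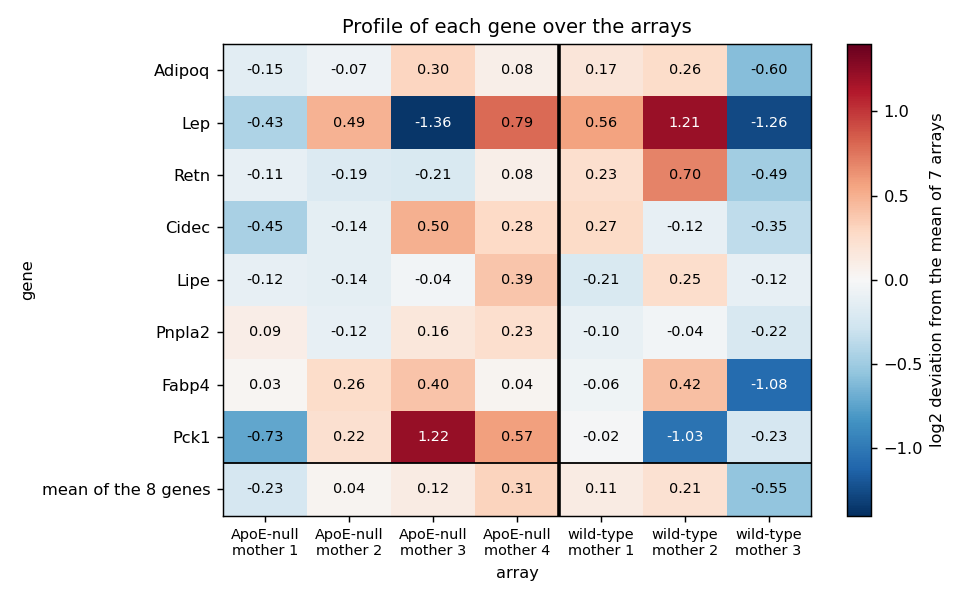
Log2 deviation of each gene from its mean over the 7 arrays (colour and printed value), with ApoE-null mother arrays left of the black line and wild-type mother arrays right of it. Wild-type mother 3 is negative for all 8 genes, and on ApoE-null mother 3 Lep is at -1.36 where Pck1 is at 1.22.

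Relations with Adipoq were computed for the 7 other genes over all 7 arrays. Fabp4 followed Adipoq most closely, with Pearson r = 0.88 (exact permutation p = 0.0220, adjusted over 7 relations 0.154) and Spearman rho = 0.71 (exact permutation p = 0.0881, adjusted 0.308). Cidec had r = 0.72 (exact permutation p = 0.0565, adjusted 0.198) and rho = 0.82 (exact permutation p = 0.0341, adjusted 0.239). For Retn, Pnpla2, Lep, Lipe and Pck1, r was 0.68, 0.55, 0.45, 0.34 and 0.26, with rho of 0.43, 0.50, 0.21, 0.32 and 0.32. None of the 7 passed after adjustment, and the p-values of these 5 were 0.0940 to 0.568 for r and 0.267 to 0.662 for rho (exact permutation). Without wild-type mother 3 and ApoE-null mother 1, the arrays farthest from the median of Adipoq, r was 0.37 for Fabp4, 0.49 for Cidec and -0.37 for Lep over 5 arrays, a set in which Adipoq itself spans a narrower range. With only wild-type mother 3 left out, r was 0.50 for Fabp4 and 0.73 for Cidec. As deviations from the group means, r was 0.92 for Fabp4, 0.71 for Cidec and 0.48 for Lep.

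The relation of Lep to Adipoq depended on single arrays. Its r was -0.03 without wild-type mother 3 and 0.95 without ApoE-null mother 3. ApoE-null mother 3 had the highest Adipoq signal and a Lep signal below the background ceiling, so its removal raises r by construction and the value is given as a description. For Pck1, r with Adipoq was -0.06 without ApoE-null mother 3 and 0.65 without wild-type mother 2.

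**Figure D4:**
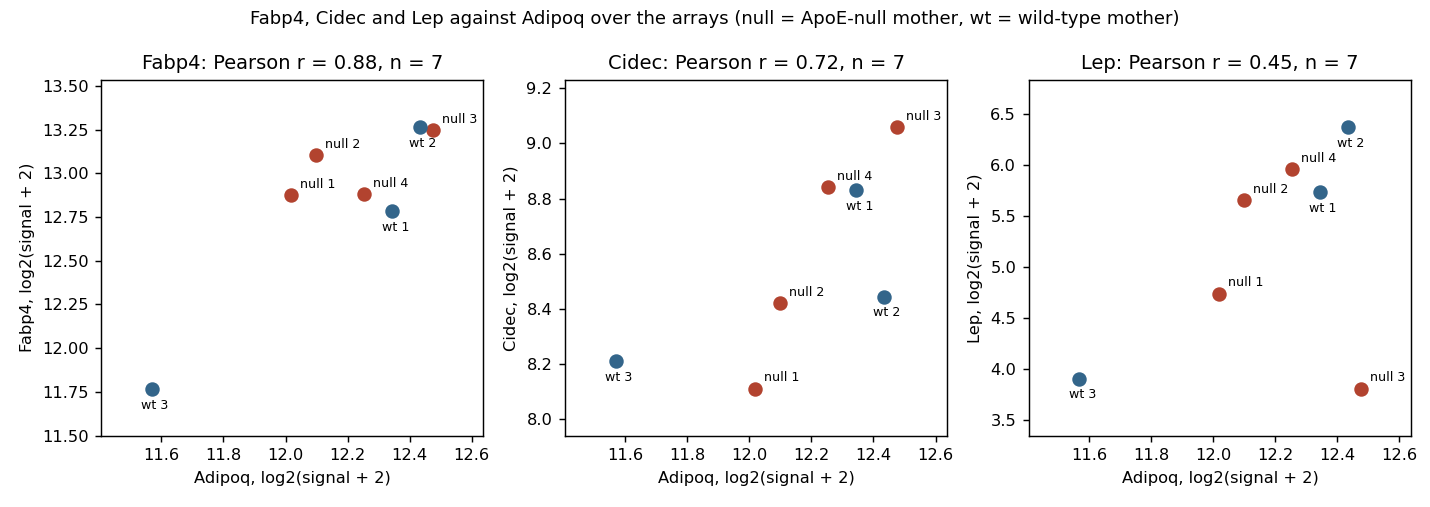
Log2(signal + 2) of Fabp4, Cidec and Lep (vertical axes) against that of Adipoq (horizontal axes), 1 point per array. Wild-type mother 3 lies at the low end of Adipoq in all panels, and in the Lep panel ApoE-null mother 3 combines the highest Adipoq with the lowest Lep value.

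Values relative to Adipoq on the same array were compared too, a measure added after the values were seen, and none of the 7 genes passed the exact permutation test. Relative log2 values of Retn were 0.04, -0.12, -0.52 and 0.00 with an ApoE-null mother, against 0.06, 0.43 and 0.11 with a wild-type mother, a difference of -0.35 (exact permutation p = 0.0857, adjusted over 7 genes 0.600). Those of Fabp4 were 0.18, 0.33, 0.10 and -0.05 with an ApoE-null mother and -0.24, 0.16 and -0.48 with a wild-type mother, a difference of 0.33 (exact permutation p = 0.171, adjusted 0.600). The differences of Retn and Fabp4 had opposite signs. The Fabp4 groups overlapped, and the Retn groups were only just apart, with ApoE-null mother 1 at 0.04 and wild-type mother 1 at 0.06. The share of all genes without overlap on this measure was not computed. Differences for Pck1, Lep, Pnpla2, Lipe and Cidec were 0.65, -0.39, 0.11, -0.05 and 0.02 (exact permutation p = 0.314 to 0.914). The smallest p this design allows on both sides is 0.0286.

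Genes with the most similar profiles were named by Pearson r over the 7 arrays, among 12110 named genes. For the set, the mean was taken over the profiles of the 8 genes after each was scaled to the same mean and spread. Nearest to this mean profile was Dgat1 (r = 0.98), which makes triglyceride from diacylglycerol, followed by Mccc1 (0.97), Ndufs1, Hsd11b1 and Ppa2 (0.96 each). Tenm4, Ptcd3, Trip4, Amacr and Haus2 had r = 0.95, and 35 genes exceeded 0.9. For Adipoq alone the nearest were Slc38a1 and Pex3 (r = 0.99), Sass6 (0.98), Krtcap3 and Cdo1 (0.97), with 67 genes above 0.9. Nearest to Lep were Selplg (0.95), Acss2 and Lrp3 (0.93), Kbtbd11 and Eci3 (0.92), with 10 genes above 0.9. With 7 arrays and this many genes, high values of r arise easily, and the values describe likeness only.

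Other genes of the droplet surface and of lipolysis did not pass either, with 0 of 18 measured genes called by limma. Their median log2 fold change was 0.14, with 13 positive and 5 negative. At an unadjusted p under 0.05 stood 1 of 18, against 8.25% of all tested probe sets. Plin5, a perilipin of tissues that burn fat, had signals of 426.6, 909.5, 709.2 and 876.0 with an ApoE-null mother, against 319.3, 422.3 and 161.3 with a wild-type mother. The groups did not overlap for Plin5, 1 of 18, where 8.02% of all tested probe sets showed no overlap. Its log2 fold change was 1.32 with an interval of 0.60 to 2.04 (limma, adjusted p = 0.458). Without wild-type mother 3, its lowest array, Plin5 had 0.93. The coat gene Plin2 had 0.15 and Plin4 -0.16. Rab18, a small GTPase found on droplets, had 0.34, the brown fat CIDE gene Cidea 0.63, and the monoacylglycerol lipase gene Mgll -0.02 (limma, adjusted p = 0.614 to 0.971 for Rab18, Cidea and Mgll).

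Of the other adipokines and of adipokine receptors, 0 of 14 measured genes were called by limma, with a median of 0.04. At an unadjusted p under 0.05 stood 2 of 14, both negative, against 8.25% of all tested probe sets in either direction. Sfrp5, a secreted Wnt inhibitor, had signals of 95.3, 48.9, 149.5 and 16.5 with an ApoE-null mother and of 182.0, 85.0 and 222.6 with a wild-type mother, a log2 fold change of -1.33 (limma, adjusted p = 0.604). It was -0.75 without ApoE-null mother 4, its lowest array. Aplnr, the receptor of apelin, had 225.8, 226.9, 188.9 and 171.9 with an ApoE-null mother, against 295.1, 523.9 and 203.1 with a wild-type mother. Its log2 fold change was -0.64 (limma, adjusted p = 0.597), and -0.28 once wild-type mother 2 was left out. Log2 fold changes were -0.08 for Adipor1 and 0.22 for Adipor2, which encode adiponectin receptors, and 0.08 for the leptin receptor gene Lepr.

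Among genes that capture fatty acids and supply glycerol, as Fabp4 and Pck1 do, 0 of 12 other measured genes were called by limma. Their median log2 fold change was 0.33, with 11 positive and 1 negative, and 6 of 12 had an unadjusted p under 0.05 on the higher side, where 4.29% of all tested probe sets did. Pdk4, a kinase that spares glucose by blocking pyruvate dehydrogenase, had signals of 1745.9, 2463.4, 3340.6 and 2015.4 with an ApoE-null mother, against 1408.9, 1296.9 and 868.4 with a wild-type mother. Gpam, which adds the first fatty acid to glycerol phosphate, had 2738.5, 4021.3, 3999.7 and 2988.9 with an ApoE-null mother and 2307.0, 2364.8 and 1661.3 with a wild-type mother. Groups did not overlap for 3 of 12, Pdk4, Gpam and Lpin1, where 8.02% of all tested probe sets showed no overlap. Log2 fold changes of Pdk4 and Gpam were 0.99 and 0.70 (limma, adjusted p = 0.428 and 0.459). Lpin1, Gpd1, Cd36 and Lpl completed these 6, at 0.76, 0.97, 0.81 and 0.42. Without wild-type mother 3, on which all 6 were lowest, the values were 0.78 for Pdk4, 0.54 for Gpam, 0.63 for Lpin1, 0.40 for Gpd1, 0.35 for Cd36 and 0.19 for Lpl.

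**Figure D5:**
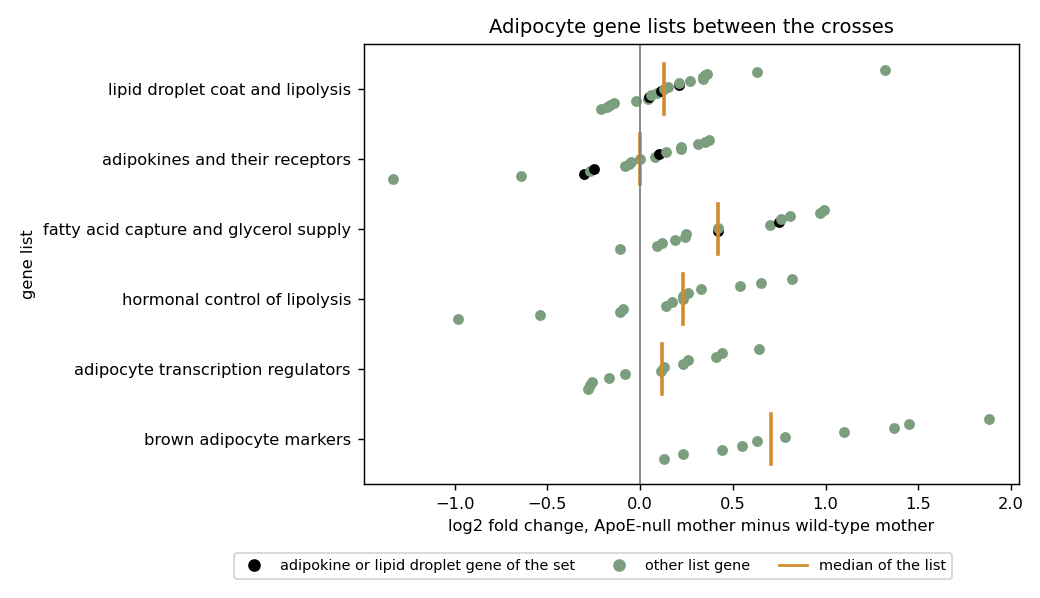
Log2 fold change (ApoE-null mother minus wild-type mother, horizontal axis) of each measured gene in 6 lists of adipocyte genes, with black points for the 8 genes of the set and bars at list medians. The medians lie at -0.00 for adipokines and receptors, 0.42 for fatty acid capture and glycerol supply and 0.70 for brown adipocyte markers, and 0 genes were called by limma.

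Genes that turn lipolysis on or off gave 0 calls among 13 measured, where 0.00370% of all tested probe sets were called. Their median log2 fold change was 0.23, and 2 of 13 had an unadjusted p under 0.05, against 8.25% of all tested probe sets. Pde3b, the phosphodiesterase through which insulin restrains lipolysis, had signals of 1640.1, 2355.6, 2347.1 and 1910.4 with an ApoE-null mother, against 1494.4, 1406.7 and 737.1 with a wild-type mother. Its log2 fold change was 0.82, and that of the insulin-responsive glucose transporter gene Slc2a4 was 0.54 (limma, adjusted p = 0.485 and 0.551). Without wild-type mother 3 that of Pde3b was 0.49. Gnas, which encodes the stimulatory G protein subunit, had -0.09. Among adipocyte transcription factors 0 of 12 were called, with a median of 0.12, and 1 of 12 had an unadjusted p under 0.05. Cebpb, an early factor of adipocyte differentiation, had 602.6, 683.5, 816.1 and 660.0 with an ApoE-null mother, against 442.9, 425.5 and 450.2 with a wild-type mother, a log2 fold change of 0.64 (limma, adjusted p = 0.418) and 0.56 to 0.70 with any 1 array left out. Pparg and Cebpa, the main regulators of the genes in the set, had 0.11 and 0.41, and Ebf1 and Prdm16 had 0.26 and 0.23.

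The summed signal of brown adipocyte markers was 10322, 13632, 15820 and 12962 with an ApoE-null mother, against 8096, 12460 and 4409 with a wild-type mother. As for the mean of the 8 genes, wild-type mother 3 was lowest. Prdm16, a factor of brown adipocyte identity, ran otherwise, with 1662.4 on wild-type mother 3 inside its range of 1085.6 to 1845.8 on the other arrays. All 10 measured markers were positive, with a median log2 fold change of 0.70 and 0 called by limma. At an unadjusted p under 0.05 stood 3 of 10, where 4.29% of all tested probe sets did on the higher side. Ucp1, which lets brown fat mitochondria make heat, had 3146.6, 4614.3, 5059.5 and 3886.9 with an ApoE-null mother and 1447.5, 2297.1 and 420.1 with a wild-type mother, a log2 fold change of 1.88 (limma, adjusted p = 0.429), and Otop1 had 1.37 and Elovl3 1.45. Without wild-type mother 3 Ucp1 had 1.17, Otop1 0.83 and Elovl3 1.01. Cidea and Cox8b were highest on wild-type mother 2, at 4295.8 and 781.5, and lowest on wild-type mother 3, at 703.8 and 70.2. Whether all 10 markers stay positive without wild-type mother 3 was not tested. ApoE-null mother 3, with the highest Ucp1 signal, was the array on which Lep was lowest and Pck1 highest. The part of brown adipocytes in the values of the set was not tested.

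Markers of other cells gave the following values. Fibroblast and preadipocyte markers summed to 18063 to 22126 with an ApoE-null mother and to 17880 to 20849 with a wild-type mother, with a median log2 fold change of 0.15, Dcn at 0.01, Lum at 0.16 and Col15a1 at -0.66. Smooth muscle markers summed to 25780 to 32016 with an ApoE-null mother and to 24930 to 32707 with a wild-type mother, with a median of -0.09, Acta2 at 0.03, Cnn1 at -0.11 and Lmod1 at -0.20. In the endothelial list Tek was at 0.49, Cdh5 at -0.29 and Vwf at 0.03, and in the macrophage list Mrc1 at 0.27, Cd14 at -0.25 and Csf1r at 0.10. Of 10 lymphocyte and thymocyte genes 6 were measured, 5 positive and 1, Cd8a, negative, and Cd4 was at or below the background ceiling on all arrays. The measured genes summed to 349 to 549 with an ApoE-null mother and to 134 to 193 with a wild-type mother, without overlap. The 5 positive genes had wild-type mother means of 9.10 to 19.8, below the filter of 23.6. They passed the filter only through the ApoE-null mother arrays, so their sign and the gap between the sums cannot be read apart from the filter. Rag1 was at 3.64 and Dntt at 3.01 (limma, adjusted p = 0.317 each). With a wild-type mother Rag1 had signals of 48.3, 0.8 and 10.3 and Dntt of 35.4, 12.4 and 2.6. Of these, 0.8, 12.4 and 2.6 lay below the background ceilings of their arrays. Skeletal muscle markers, with Acta1 at -3.06 and Tnnt3 at -1.49, summed to 149 to 242 with an ApoE-null mother and to 187 to 2541 with a wild-type mother. The high sum came from wild-type mother 2, where Tnnc2 had a signal of 525.8 against 7.9 to 23.4 on the other arrays. Without that array Acta1 was at -2.14, and Tnnc2 and Tnnt3 did not pass the filter. Acta1 signals of 1.0 on ApoE-null mother 2 and 2.3 on ApoE-null mother 4 lay below the background ceilings of these arrays. Of 7 hepatocyte genes 2 were measured, Alb at 0.52 and Apoa2 at -0.01, and Apoa1 and Fgb were at or below the background ceiling on all arrays. The part of these cells in the values of the set was not tested.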

How the data were processed

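RNA of 7 carotid artery samples was measured on Affymetrix mouse arrays after 2 rounds of amplification from an oligo-dT primer, per the labels' protocols. The authors deposited 1 intensity per probe set and array on a linear scale. The submitters' processing notes name MAS5 and GCOS, without versions. The trimmed mean (2% at each end) was equal on all arrays, so the deposited scaling was kept. The platform annotation names 1 gene for 34958 of 45101 probe sets, several for 932 and none for 9211, and 0 symbols changed against the RefSeq gene table. No detection calls were used.

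Tests used log2(signal + 2), where 2 is the rounded 10th percentile of all signals. The 64 control probe sets were left out. A mean signal over 23.6, the 40th percentile, was required, and the 27013 probe sets that had it were tested in limma 3.58.1 under R 4.3.3 (lmFit, then eBayes with a trend on intensity), with Benjamini-Hochberg adjustment over all of them and no covariate. Correlations and relative values used exact permutation tests on both sides. The number of arrays limits the precision.

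Named genes were all genes of the set, in each of 13 lists the 2 measured genes with the smallest p and the 1 with the strongest signal, the genes with the nearest profiles, Apoe and Xist. Genes outside this rule that are named with values (Elovl3, Cox8b, Plin2, Plin4, Cidea, Adipor1, Adipor2, Lepr, Lpin1, Gpd1, Cd36, Lpl, Pparg and Cebpa) were chosen after their values were seen. The genes of the set and the lists were chosen with earlier results of these data known. Alternatives were the pseudocount, the filter, quantile normalization, no intensity trend, another summary per gene and leaving out each array.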

Additional observations from a re-analysis of the deposited data

Results flagged for a closer look

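Within the ApoE-null mother group, 15 probe sets were checked for 1 array far from the other 3, and 2 had one, both of Lipe. Chance gives this in about 1 in 20 groups. The Lipe signal on ApoE-null mother 4 was 204.9, where the others had 140.8 to 150.9, a gap of 0.842 of the whole range, above Dixon's 95% critical value for 4 samples. The second Lipe probe set reached 17.7 on ApoE-null mother 2, with a gap of 0.848 of the range, and lay at or below the background ceiling on every array.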

How the results depend on the processing

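Under the 12 alternatives that keep probe sets apart, 0 probe sets of the set were called by limma, with a smallest adjusted p of 0.214. With these and with the mean of all probe sets of a gene, the median log2 fold change of the genes stayed at -0.01 to 0.24, against 0.10 with all arrays. Of 150 fold changes recomputed, 138 kept their sign and 12 changed it, all 12 when 1 array was left out. Leaving out single arrays gave -0.18 to 0.25 for Adipoq, -1.01 to 0.22 for Lep, -0.57 to 0.02 for Retn, -0.04 to 0.28 for Cidec, -0.07 to 0.19 for Lipe, -0.10 to 0.48 for Fabp4 probe set 1424155_at and -0.04 to 0.57 for 1425809_at. Pearson r with Adipoq was then -0.03 to 0.95 for Lep and -0.06 to 0.65 for Pck1. Over all probe sets, calls by limma numbered 1 with the settings used, 2 after quantile normalization, 0 without the intensity trend, and 0 to 18 with 1 array left out (18 without wild-type mother 1, 4 without wild-type mother 3). Calls among list genes numbered 0 to 2 (Rag1 and Dntt, without wild-type mother 1). The cause of these changes was not tested beyond the arrays removed. Lep and the second Pnpla2 probe set did not pass the filter at the 60th percentile. Correlations under other settings and fold changes of list genes with 1 array left out were added after the data were seen. No paired analysis was possible because the labels give no number shared between groups. Lep is limited by its nearness to background.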
